A study of Mus musculus with 20 samples.

Results

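Acetylation of histone H3 at lysine 27 (H3K27ac), a mark of active enhancers and promoters, was compared between livers without Ppara and livers with it. The comparison used 8 of the 20 samples of the series: 4 Ppara-null livers and 4 Ppara-intact livers. They came from C57BL/6 male mice aged 9 weeks that were fasted for 24 hours. The Ppara-null group held 2 livers of whole-body Ppara knockouts (Ppara KO) and 2 livers of double knockouts (DKO), which lack Ppara and, in the liver, also Cpt2. The Ppara-intact group held 2 wild-type (WT) livers and 2 livers in which Cpt2 was deleted in the liver only (Cpt2 KO). Both groups thus held 2 Cpt2-null livers. The promoter that drove the recombinase in the Cpt2 knockouts is not given in the sources used here, nor is the allele carried by the WT mice. The compared regions were 18281 of the 65776 H3K27ac consensus intervals of the series, namely those in which a peak was called in all 8 livers.

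Ppara encodes a nuclear receptor that is activated by fatty acids and binds DNA together with a retinoid X receptor. In the fasted liver it is known for switching on genes of fatty acid uptake, peroxisomal and mitochondrial fatty acid oxidation, microsomal omega hydroxylation and ketone body synthesis. Its classical binding site is a direct repeat of the half-site AGGTCA with a single base between both copies. Cpt2 encodes the inner-membrane carnitine palmitoyltransferase that long-chain fatty acids need to enter mitochondrial oxidation.

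Promoter sequences of 5 genes named below are shown first. Each runs from 250 bases before to 50 bases after a transcription start (RefSeq, GRCm38.p6, the assembly that mm10 names). All 5 starts lie inside an H3K27ac interval that passed the test in Ppara-null livers, lower for the first 4 genes and higher for the last. Capitals mark the half-site AGGTCA, on either strand, and a looser repeat, GGNCAN followed directly by AGGNCA, which can overlap a half-site; N is any base.
Fabp1, fatty acid-binding protein, chr6:71199629-71199928, plus strand: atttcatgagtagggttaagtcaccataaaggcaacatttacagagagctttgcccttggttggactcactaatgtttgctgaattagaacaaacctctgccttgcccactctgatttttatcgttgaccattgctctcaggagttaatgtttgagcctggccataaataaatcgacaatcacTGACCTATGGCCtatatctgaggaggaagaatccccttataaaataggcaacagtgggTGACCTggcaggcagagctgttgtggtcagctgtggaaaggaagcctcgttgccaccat
Acot4, peroxisomal acyl-CoA thioesterase, chr12:84038129-84038428, plus strand: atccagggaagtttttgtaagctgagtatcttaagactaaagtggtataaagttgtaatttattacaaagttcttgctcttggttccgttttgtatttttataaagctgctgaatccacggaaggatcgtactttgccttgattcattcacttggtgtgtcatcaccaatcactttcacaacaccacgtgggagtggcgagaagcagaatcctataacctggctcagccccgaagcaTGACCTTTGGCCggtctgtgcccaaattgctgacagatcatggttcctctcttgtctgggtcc
Prodh2, hydroxyproline dehydrogenase, chr7:30493408-30493707, plus strand: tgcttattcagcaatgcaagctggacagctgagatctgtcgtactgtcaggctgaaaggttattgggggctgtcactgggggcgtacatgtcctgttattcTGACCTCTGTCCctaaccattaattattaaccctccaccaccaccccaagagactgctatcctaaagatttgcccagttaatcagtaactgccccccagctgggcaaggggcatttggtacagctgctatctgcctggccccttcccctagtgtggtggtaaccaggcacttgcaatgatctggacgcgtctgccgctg
Acaa1b, peroxisomal thiolase, chr9:119157044-119157343, minus strand: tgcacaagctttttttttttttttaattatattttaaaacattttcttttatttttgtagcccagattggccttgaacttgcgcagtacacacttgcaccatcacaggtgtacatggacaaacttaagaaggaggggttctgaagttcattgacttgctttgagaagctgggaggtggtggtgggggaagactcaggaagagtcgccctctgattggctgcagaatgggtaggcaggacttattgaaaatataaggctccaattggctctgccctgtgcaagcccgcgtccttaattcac
Got1, cytosolic aspartate aminotransferase, chr19:43524556-43524855, minus strand: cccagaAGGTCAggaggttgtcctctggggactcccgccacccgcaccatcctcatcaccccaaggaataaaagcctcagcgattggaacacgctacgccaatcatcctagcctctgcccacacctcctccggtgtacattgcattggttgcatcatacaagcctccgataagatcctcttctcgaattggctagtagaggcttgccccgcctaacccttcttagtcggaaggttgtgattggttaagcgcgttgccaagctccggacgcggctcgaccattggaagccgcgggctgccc
The looser repeat starts 67 bases before the start in Fabp1, 13 in Acot4 and 149 in Prodh2, in each on the opposite strand. The Acaa1b window held no match and the Got1 window held a half-site only. Fabp1, Acot4 and Prodh2 are among the 7 lower intervals with the looser repeat that are counted next. That repeat was added after seeing the data, so the windows shown are not typical of lower intervals. Over all 265 lower intervals that hold a listed start, the looser repeat was found in a promoter window of 7 (2.64%), against 67 of the 6134 tested intervals with a start (1.09%) and 167 of 21263 promoter sequences of protein-coding genes (0.785%). Of the 52 higher intervals with a start, 0 held it. The half-site alone was found in 42 of 265 lower (15.8%), 10 of 52 higher (19.2%), 897 of 6134 tested (14.6%) and 3129 of 21263 promoters (14.7%). The full repeat, AGGTCA, any base and AGGTCA, was found in 10 of the 21263 promoters and in 0 of the 6134 tested intervals with a start. An interval can hold several starts and was counted if any of its windows matched, whereas the promoters were counted singly. These are letter matches in 300 bases and say nothing of binding.

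The targeted genes were examined next. Of 13 tested intervals assigned to Ppara, which encodes the deleted receptor, 3 inside the gene body were lower in Ppara-null livers. The interval at chr15:85741614-85744699 had folds over input of 13.7 and 18.6 for WT, 15.9 and 15.4 for Cpt2 KO, 8.69 and 8.60 for Ppara KO and 7.91 and 8.0 for DKO livers, so the groups did not overlap. Its log2 difference, Ppara-null minus Ppara-intact, was −0.96 ± 0.17 (SE, adjusted p = 0.00475, limma). The other 2 lay at chr15:85745608-85748290 (−1.08 ± 0.21) and chr15:85785705-85791413 (−0.83 ± 0.17), and the call of the latter was lost without Cpt2 KO replicate 2. The interval that holds the Ppara start, chr15:85730896-85741526, was not lower: its difference was 0.48 ± 0.13 (adjusted p = 0.0409), a call lost when any of 7 of the 8 livers was left out. At Cpt2, the interval over the start (chr4:107920649-107924008) had folds of 11.5 and 16.9 (WT), 18.7 and 23.3 (Cpt2 KO), 8.75 and 9.80 (Ppara KO) and 9.33 and 12.2 (DKO). It was lower without Ppara, by −0.81 ± 0.17 (adjusted p = 0.0139), with no overlap between the groups after centring; the call was lost without Cpt2 KO replicate 2.

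Over the 18281 intervals, 758 (4.15%) were lower and 584 (3.19%) higher in Ppara-null livers at an adjusted p under 0.05, 1342 in all (7.34%). A value is the authors' fold over input at the highest peak of an interval, in log2, after each library was centred on its median; differences were tested with limma in a fit of the 4 genotype means. The median difference was −0.81 in the lower intervals, 0.79 in the higher ones and −0.01 over all. Differences of at least 1 in log2, a doubling or halving, were found in 168 lower and 117 higher intervals. All 4 Ppara-null livers lay outside the range of the 4 Ppara-intact livers in 461 lower and 380 higher intervals, and in 8.2% of all tested intervals. Calls over listed transcription starts were mostly lower: 265 of 6134 (4.32%) were lower and 52 (0.848%) higher, whereas of the 12147 others 493 (4.06%) were lower and 532 (4.38%) higher. Under quantile normalization the start intervals split into 212 lower and 82 higher. The higher intervals lay inside a gene body in 51.9% of cases and the lower ones in 77.2%, against 70.5% of all. With a library left out, lower intervals numbered 276 without Cpt2 KO replicate 2, 400 and 455 without Ppara KO replicates 1 and 2, 430 without DKO replicate 2, 462 without WT replicate 2 and 487 without Cpt2 KO replicate 1. Higher ones numbered 193, 269 and 291, 277 and 380 in the same order without the first 5 of these, and 342 without DKO replicate 1. Those fits leave a genotype with 1 liver, which is assumed to vary like the others, and a fit of 2 group means called 144 lower and 94 higher. Fewer cells carrying the mark and less of the mark per cell cannot be told apart in whole liver.

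Peak numbers of the 8 libraries ran from 44454 to 48929 and median folds from 6.69 to 8.21; read depth is not given by the files. The smallest peak width, which follows a library's fragment length in MACS2, was 198 to 221 bases in Ppara-intact and 205 to 223 in Ppara-null libraries; with it as a covariate 425 intervals were lower and 288 higher. The numbers in the peak names, read here as animals, belong to one series in all Ppara-intact and to another in all Ppara-null livers, so these series and Ppara state cannot be told apart. Nothing in the labels says more than that the 2 livers of a genotype are separate samples. Markers of other liver cells were counted at the strongest interval of each gene (that with the highest mean fold). Of those measured, 0 of 4 Kupffer cell, 0 of 13 endothelial, 0 of 4 stellate cell, 0 of 2 cholangiocyte and 0 of 1 lymphocyte or neutrophil markers were called. Of all genes so measured 4.3% were lower and 2.34% higher, so 0 calls among so few markers says little. Over any assigned interval 1 endothelial marker had a higher one, against 5.24% of all genes. With the 25000-base window 1 of 6 Kupffer cell markers had a lower one, against 8.61% of all genes. Intervals outside the test, called in every liver of one Ppara state and in none of the other, were found for 3 markers. Ptprc, the pan-leukocyte antigen, is the gene nearest to 3 of them in Ppara-null livers alone (folds of 6.25 to 20.8), which lie 311105 to 501364 bases away. Dcn, the matrix proteoglycan decorin, is nearest to 3 (4.67 to 11.9), 166869 to 230224 bases away. Sox9, a cholangiocyte transcription factor, is nearest to 1 in Ppara-intact livers alone (4.67 to 12.6), 61051 bases away. At such distances the nearest gene is only a name for a place. Summed folds of the 15 Kupffer cell and macrophage markers ran from 41.7 to 122 in Ppara-intact and from 69.8 to 186 in Ppara-null livers, those of the 14 endothelial markers from 167 to 297 and from 190 to 289. No peak was assigned to Marco and Folr2 (macrophages), Col1a1, Lum and Ngfr (stellate cells and fibroblasts), 5 of 14 cholangiocyte and 11 of 15 lymphocyte or neutrophil markers in any library. The part of these cells in the results was not tested. Hepatocyte markers had peaks in 15 of 16 genes in every library.

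After the 3 largest falls, at Mfsd2a, Acaa1b and Slc27a2, the next 12 genes with lower H3K27ac were Smim4, Cyp4a32, Ehmt1, Zfp395, Btaf1, Cyp4a10, Mtfr1, Abhd6, Cyp2d9, Prpsap1, Rreb1 and Pawr, with log2 differences from −1.84 to −1.59. Only the interval of Btaf1 holds a listed start, and 8 of 12 lie inside the gene body. The first was inside Smim4, which encodes a small mitochondrial membrane protein, at chr14:31110307-31117099. Its folds were 14.6 and 13.8 for WT, 37.5 and 26.8 for Cpt2 KO, 5.72 and 4.48 for Ppara KO and 6.93 and 7.51 for DKO livers. The difference was −1.84 ± 0.18 (adjusted p = 0.000239, limma), and Cpt2 KO livers stood above WT. Cyp4a32 and Cyp4a10 encode microsomal enzymes that hydroxylate fatty acids at the omega end. At Cyp4a32 (chr4:115595938-115598970, 3473 bases from the gene) folds were 18.5 and 19.4 (WT), 48.3 and 37.7 (Cpt2 KO), 10.0 and 6.69 (Ppara KO) and 8.13 and 8.52 (DKO), a difference of −1.81 ± 0.18. At Cyp4a10 (chr4:115513203-115522449, 461 bases from the gene) they were 12.8 and 19, 29.5 and 19.8, 6.17 and 5.50, and 7.0 and 6.43 in the same order, a difference of −1.67 ± 0.19. In both, every Ppara-null liver was below every Ppara-intact liver. These genes have near-identical copies beside them, and how reads that fit several copies were placed is not given in the sources used here.

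Mtfr1 encodes a regulator of mitochondrial fission and Abhd6 a lipase of monoacylglycerols. Folds inside Abhd6 (chr14:8015335-8017594) were 22.1 and 18.3 for WT, 31.6 and 31.6 for Cpt2 KO, 6.38 and 8.67 for Ppara KO and 9.57 and 8.29 for DKO livers. This was a 3.16-fold lower mark, −1.66 ± 0.18 in log2 (adjusted p = 0.000331). Inside Mtfr1 (chr3:19200530-19202689) the mean fold was 19.6 ± 7.59 in Ppara-intact and 6.23 ± 1.95 in Ppara-null livers (SD, n = 4 each), a difference of −1.66 ± 0.22 (adjusted p = 0.000851, limma). Ehmt1 encodes a histone H3 lysine 9 methyltransferase, Zfp395 and Rreb1 zinc finger transcription factors, and Btaf1 an ATPase that removes TATA-binding protein from DNA. Inside Zfp395 (chr14:65368351-65373559) folds were 18.6 and 23.3 (WT), 28.0 and 29.3 (Cpt2 KO), 6.69 and 9.00 (Ppara KO) and 7.24 and 7.73 (DKO), a difference of −1.71 ± 0.16. Ehmt1 showed −1.79 ± 0.18 and Rreb1 −1.60 ± 0.16, and 4 of the 22 tested intervals of Rreb1 were lower. Btaf1 (−1.71 ± 0.26) was the least even, with 3.56 and 11 in the Ppara KO livers. Cyp2d9, a steroid hydroxylase higher in males, had 19.3 and 22.3 for WT, 29.0 and 23.2 for Cpt2 KO, 7.74 and 12.1 for Ppara KO and 7.0 and 5.0 for DKO livers, 7853 bases from the gene. The strongest interval of Cyp2d9 lay elsewhere and was not called. Prpsap1, a partner of phosphoribosyl pyrophosphate synthetase, and Pawr, a regulator of cell death, showed −1.61 ± 0.17 and −1.59 ± 0.20. The interval of Pawr lies 34940 bases from that gene. For all 12 intervals the groups did not overlap after centring, and every call held with each library left out. The 12 were chosen by the size of the difference in these same livers, which favours both. The groups were apart in 60.8% of all lower intervals and 8.2% of all tested ones.

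On the higher side, after Spon1, Aldh8a1 and Cdh1, the next 12 genes included Ercc3, Itpr1, Btc, Inava, Dlgap1, Vps26c, Rpia, Ccdc172, P2rx7, Sgip1 and Pabpc2, with differences from 1.35 to 1.73. None of these intervals holds a listed start and 3 of 12 lie inside a gene body, those of Itpr1, Inava and Sgip1. The interval of Btc lies 83091 bases from that gene, so a nearest gene is a name for a place here. Itpr1, an inositol trisphosphate receptor that releases calcium from the endoplasmic reticulum, had folds of 9.77 and 7.56 (WT), 4.57 and 5.40 (Cpt2 KO), 16 and 16.3 (Ppara KO) and 28.8 and 27.6 (DKO) (chr6:108462735-108468518). Its difference was 1.68 ± 0.19 (adjusted p = 0.000414), and all Ppara-null livers were above all Ppara-intact ones. Ercc3, a helicase of transcription factor IIH, had an interval 1264 bases away (chr18:32270635-32272195) with a difference of 1.73 ± 0.23. Its folds were 3.33 and 5.88 for WT, 6.00 and 3.89 for Cpt2 KO, 10.9 and 13.8 for Ppara KO and 14.6 and 27.4 for DKO livers.

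Btc encodes betacellulin, a ligand of the epidermal growth factor receptor, and P2rx7 an ATP-gated ion channel. Near P2rx7 (chr5:122690780-122694532, 320 bases from the gene) folds were 4.0 and 5.0 (WT), 16 and 8.75 (Cpt2 KO), 19.2 and 21.8 (Ppara KO) and 18.0 and 20 (DKO). The difference was 1.41 ± 0.19 (adjusted p = 0.000926, limma), with both Cpt2 KO livers between WT and the Ppara-null livers. Btc (chr5:91272310-91276031, 83091 bases away) had 3.57 and 6.33, 15.1 and 15.2, 23.2 and 15.7, and 30.5 and 40.2 in the order WT, Cpt2 KO, Ppara KO, DKO, a difference of 1.58 ± 0.20. Dlgap1, a scaffold protein known from synapses, showed an even change: 8.20 and 7.95 for WT, 6.83 and 6.76 for Cpt2 KO, 20.4 and 18.5 for Ppara KO and 21.0 and 27.1 for DKO livers (1.51 ± 0.17, chr17:70822856-70824273). Inava, a regulator of innate immune signalling, and Sgip1, an adaptor of endocytosis, showed 1.52 ± 0.19 and 1.40 ± 0.20. Vps26c, a subunit of an endosomal sorting complex, showed 1.46 ± 0.19, and 3 of its 4 tested intervals were higher. Ccdc172, a coiled-coil protein, and Pabpc2, a poly(A)-binding protein, showed 1.45 ± 0.21 and 1.35 ± 0.22. All 12 calls held with each library left out, and the groups did not overlap after centring in any of them. These 12 too were chosen by size in the same livers, and the groups were apart in 65.1% of all higher intervals. In a fit of 2 group means, which leaves Cpt2 state in the error, Rpia and Sgip1 lost the call.

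**Figure D1:**
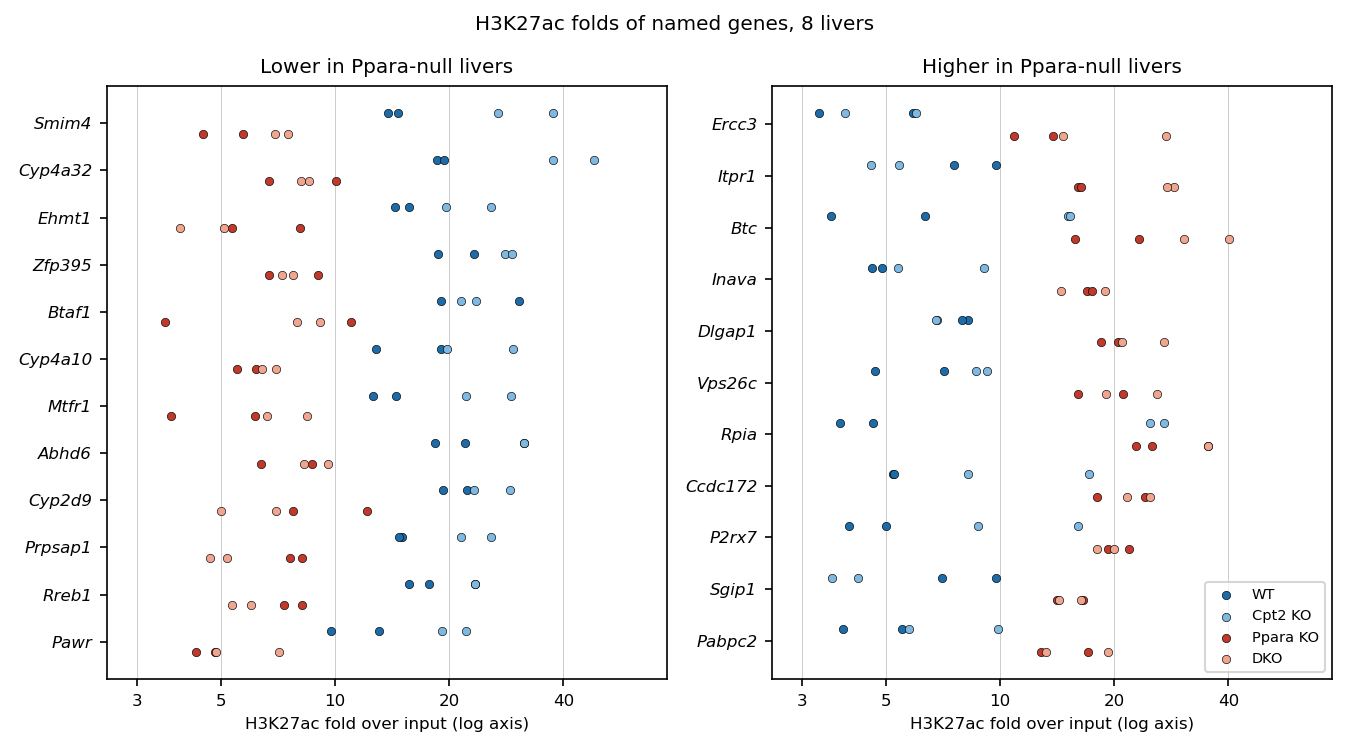
H3K27ac fold over input (log axis) in each of the 8 livers at the genes named on the lower side (left) and on the higher side (right); each point is a liver, coloured by genotype. On the left the 4 Ppara-null livers sit below the 4 Ppara-intact livers for every gene; on the right Rpia shows Cpt2 KO folds of 27 and 24.9 beside those of Ppara KO, 22.8 and 25.1.

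Genes were then counted by function list. A listed gene was represented by its strongest interval, the assigned one with the highest mean fold over the 8 livers. Of all 9358 genes so measured, 402 (4.3%) were lower and 219 (2.34%) higher, with a median difference of −0.05. Of 817 distinct listed genes, 620 were measured, and 101 genes stand in more than 1 list. By the share of measured members called in either direction, the first lists were peroxisomal fatty acid oxidation (10 of 24, 41.7%), mitochondrial fatty acid oxidation (9 of 22, 40.9%), microsomal omega hydroxylation (4 of 11, 36.4%), xenobiotic and steroid cytochrome P450s (7 of 23, 30.4%), fatty acid uptake (5 of 17, 29.4%) and amino acid breakdown (11 of 46, 23.9%). Calls in the fatty acid lists were nearly all lower, and those in the P450 and amino acid lists mostly higher. Counting any assigned interval, 678 genes (7.25%) were lower and 490 (5.24%) higher; then 10 of the 24 peroxisomal genes were lower, and 5 P450 genes were lower beside 8 higher. Within 25000 bases of a gene, 8.61% of 12911 genes had a lower and 4.73% a higher interval, against 12 and 2 of 26 peroxisomal and 6 and 7 of 25 P450 genes. Among 8650 genes with an interval within 1000 bases, 4.31% were lower and 1.66% higher, and of P450 genes 1 and 3 of 19. The direction of the first lists was known from earlier results on these livers, so their rank is a description.

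**Figure D2:**
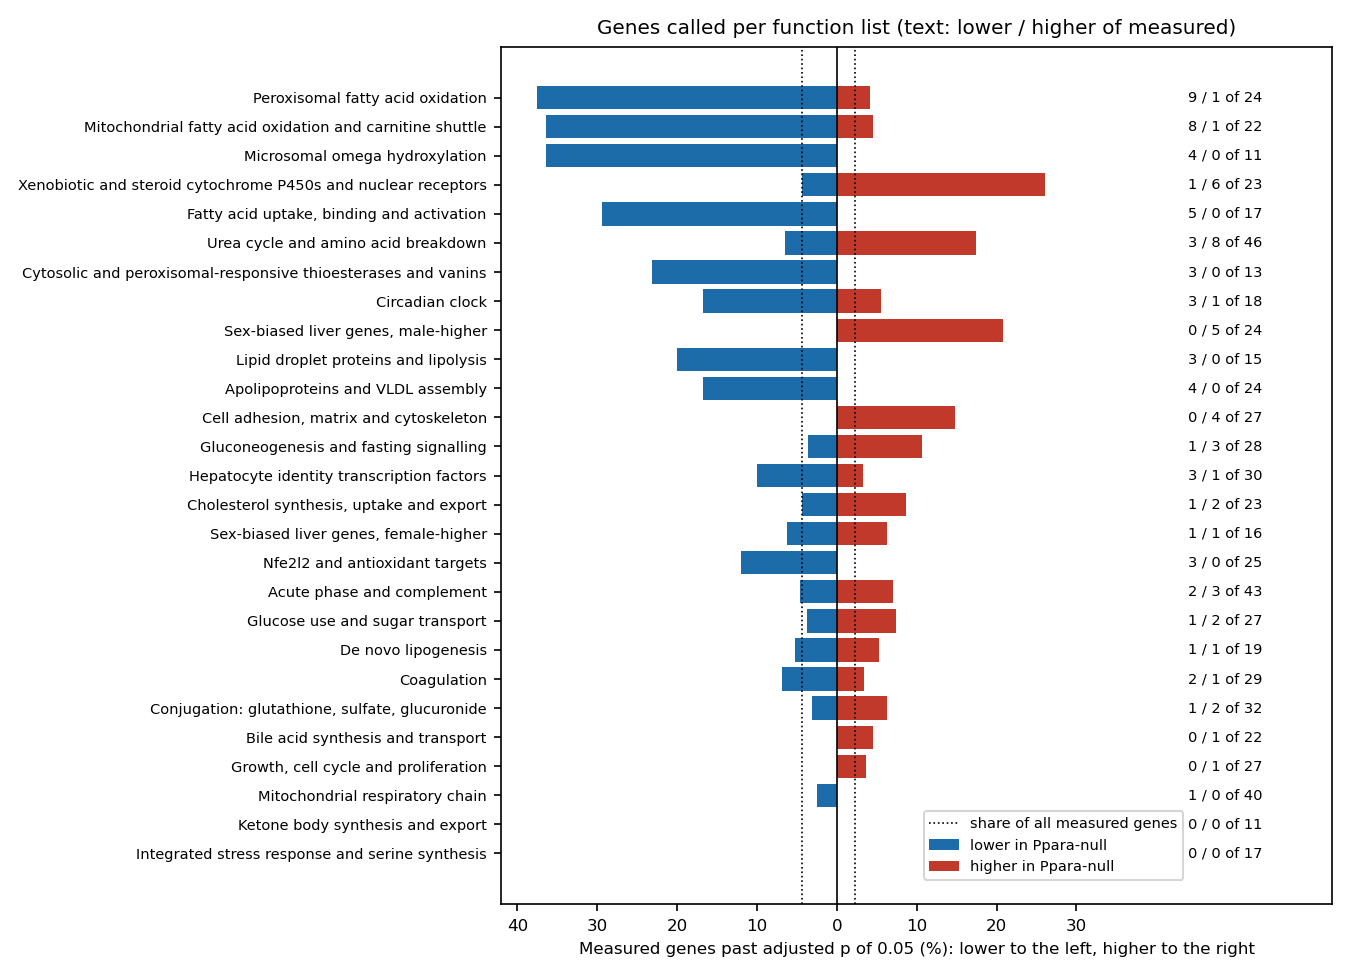
Share of the measured genes of each function list that were lower (blue, to the left) or higher (red, to the right) in Ppara-null livers at an adjusted p under 0.05, in percent; dotted lines give the shares of all measured genes, 4.3% lower and 2.34% higher. Numbers at the right are genes lower / higher of genes measured: the fatty acid lists extend to the left, amino acid breakdown (3 / 8 of 46) and P450s (1 / 6 of 23) to the right.

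Peroxisomal oxidation shortens very-long-chain and branched fatty acids. Of its 24 measured genes, 9 were lower and 1 higher, and the median difference was −0.41. Hsd17b4, the bifunctional enzyme of the hydratase and dehydrogenase steps of the cycle, had folds of 25.5 and 28.8 (WT), 46.3 and 42.1 (Cpt2 KO), 10.8 and 14.0 (Ppara KO) and 13.5 and 11.2 (DKO). Its interval inside the gene (chr18:50126596-50135452) was lower by −1.52 ± 0.14 (adjusted p = 0.00021, limma). Abcd3, which carries acyl groups into the peroxisome, fell from 38.2 and 49.5 for WT and 51.0 and 48.2 for Cpt2 KO to 25.2 and 26.6 for Ppara KO and 24.0 and 27.2 for DKO livers, by −0.88 ± 0.10 (chr3:121809863-121816444, adjusted p = 0.000414). No Ppara-null liver reached the lowest Ppara-intact liver in either gene. Eci2, an isomerase for unsaturated fatty acids, was lower in all 4 of its tested intervals, by −1.22 to −1.10. At its start (chr13:34990678-34996469) folds were 21.9 and 27.3 for WT, 22.4 and 21.2 for Cpt2 KO, 7.13 and 10.3 for Ppara KO and 11.2 and 15.4 for DKO livers. Ech1 and Acaa1a, an isomerase and a thiolase, were lower by −0.93 ± 0.16 and −0.80 ± 0.15. Scp2, a thiolase and sterol carrier, went the other way: its strongest interval, inside the gene, was higher by 0.54 ± 0.12 (adjusted p = 0.0144), with 19.3 to 24.2 in Ppara-intact and 27 to 37.9 in Ppara-null livers. That call was lost without Cpt2 KO replicate 2 or without DKO replicate 1, and Scp2 was singled out after its value was seen. Ehhadh, the other bifunctional enzyme, was not called and had a difference of −0.13 ± 0.17. The count of lower genes ran from 8 to 9 with a library left out.

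Mitochondrial oxidation and the carnitine shuttle had 8 of 22 measured genes lower and 1 higher, with a median of −0.33. Slc25a20, the carrier that moves acylcarnitines across the inner membrane, had folds at its start (chr9:108661991-108664295) of 14.6 and 21.7 (WT), 16.8 and 24.4 (Cpt2 KO), 7.14 and 6.29 (Ppara KO) and 7.71 and 9.00 (DKO). This was a difference of −1.37 ± 0.19 (adjusted p = 0.00151, limma). Decr1, the reductase for polyunsaturated acyl-CoA, fell from 19.2 and 24.6 for WT and 29.3 and 26.5 for Cpt2 KO to 9.05 and 11.8 for Ppara KO and 8.05 and 10.6 for DKO livers, by −1.36 ± 0.15 (chr4:15936372-15945945). Acads, the short-chain acyl-CoA dehydrogenase, fell at its start (chr5:115118400-115119790) from 18.8 and 30.7 for WT and 25.3 and 22.8 for Cpt2 KO to 8.50 and 10.7 for Ppara KO and 10.2 and 10.3 for DKO livers, by −1.31 ± 0.16. The groups were separate in all 3 genes. Eci1, the mitochondrial isomerase, was lower by −0.98 ± 0.16 (adjusted p = 0.00385) and Acadvl, the very-long-chain dehydrogenase, by −0.96 ± 0.16. Acadm, the medium-chain dehydrogenase, stood apart from these: its strongest interval, inside the gene, had folds of 5.25 to 8.54 in Ppara-intact and 10.5 to 14.4 in Ppara-null livers, a difference of 0.81 ± 0.21 (adjusted p = 0.0344). Acadm was singled out after its value was seen, and its call was lost when any of 7 of the 8 livers was left out. Another Acadm interval, 2382 bases from the gene, had peaks only in the 4 Ppara-intact livers. The list's count of lower genes ran from 5, without Cpt2 KO replicate 2, to 9.

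Uptake, binding and activation of fatty acids had 5 of 17 measured genes lower and 0 higher (median −0.20). Slc27a1, a fatty acid transport protein, had folds at its start (chr8:71567085-71571001) of 16.3 and 19.4 for WT, 22.7 and 22.1 for Cpt2 KO, 6.35 and 7.12 for Ppara KO and 9.35 and 11.3 for DKO livers, a difference of −1.29 ± 0.15 (adjusted p = 0.000621, limma). At Fabp1, the abundant cytosolic fatty acid-binding protein of hepatocytes, folds were 15.7 and 17.4 (WT), 25.7 and 25.6 (Cpt2 KO), 8.62 and 11.7 (Ppara KO) and 9.08 and 14.1 (DKO). This interval (chr6:71193024-71204761), whose promoter is printed above with its repeat in capitals, was lower by −0.98 ± 0.16 (adjusted p = 0.00397). Slc27a2, a very-long-chain acyl-CoA synthetase, was lower at its strongest interval too, by −0.83 ± 0.15, and lost that call in the fit of 2 group means. Acsl1, the main long-chain acyl-CoA synthetase of liver, had 5 lower intervals of 9 tested, with differences from −1.35 to −0.53. The last of these, at its strongest interval, lost the call in 6 of the 8 omissions of a single liver and in 5 other settings, the fit without centring among them. Of the 11 omega hydroxylation genes, 4 were lower and 0 higher; the list's median was −0.003 and Cyp4a32 and Cyp4a10 were the largest changes, as given above. The other called genes, Aldh3a2 (−0.58 ± 0.15) and Cyp4v3 (−0.55 ± 0.16), had adjusted p of 0.0317 and 0.0498 and lost the call when most single libraries were left out. Acyl-CoA thioesterases and vanins had 3 of 13 lower: Acot4 (−0.96 ± 0.18), Pank1, a pantothenate kinase that feeds coenzyme A synthesis (−0.68 ± 0.14), and Acot2 (−0.67 ± 0.15), whose call was lost without Cpt2 KO replicate 2, Ppara KO replicate 2 or DKO replicate 1. Folds at Acot4 were 18.4 and 27.7 for WT, 25.9 and 30.6 for Cpt2 KO, 10.4 and 17.7 for Ppara KO and 13.1 and 12.8 for DKO livers.

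**Figure D3:**
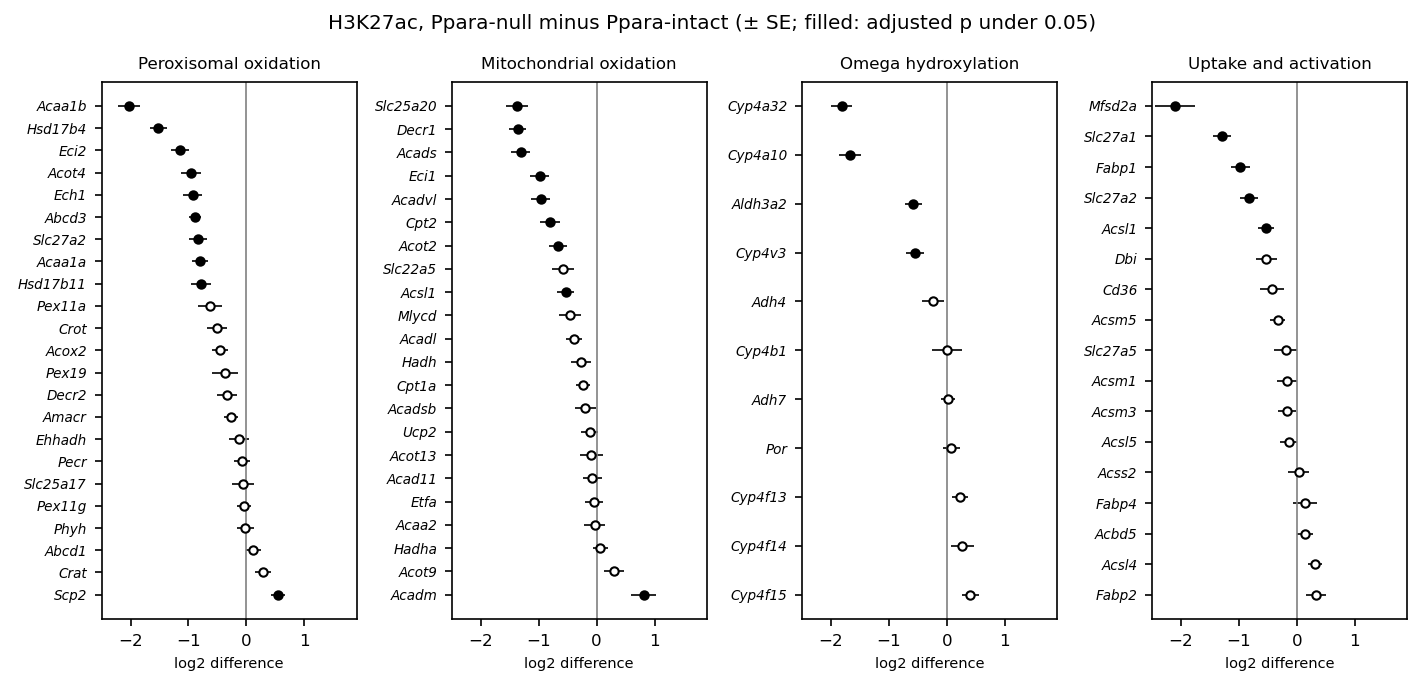
Log2 difference in H3K27ac, Ppara-null minus Ppara-intact (± SE), at the strongest interval of measured genes of 4 fatty acid lists; filled points passed an adjusted p of 0.05. Most filled points lie left of 0, from −2.10 (Mfsd2a) to −0.53 (Acsl1); Scp2 (0.54) and Acadm (0.81) are the filled points on the right.

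Lipid droplet and lipoprotein genes with a call were lower as well. Fitm2, which acts in budding of lipid droplets, had folds at its start (chr2:163470705-163472990) of 15.3 and 22.4 (WT), 26.1 and 25.1 (Cpt2 KO), 8.53 and 8.89 (Ppara KO) and 10.4 and 11.2 (DKO). The groups did not overlap, and the difference was −1.20 ± 0.16 (adjusted p = 0.00084, limma). Mgll, the monoacylglycerol lipase, was lower by −0.82 ± 0.15 and Plin5, a droplet coat protein, by −0.59 ± 0.15 (adjusted p = 0.0273, lost when any of 6 livers was left out), so that 3 of 15 droplet genes were lower and 0 higher. Gpam, which starts triglyceride synthesis, fell by −1.21 ± 0.21, from 16.3 to 34.7 in Ppara-intact to 7.38 to 15.8 in Ppara-null livers, and 3 of its 7 intervals were lower. The lipogenesis list held 1 lower gene, Gpam, and 1 higher of 19. Of 24 apolipoprotein and VLDL genes, 4 were lower and 0 higher. Lipg, an endothelial-type lipase, led them with folds of 19.2 and 18.4 for WT, 33.4 and 31.5 for Cpt2 KO, 9.47 and 14.4 for Ppara KO and 6.93 and 5.84 for DKO livers, at an interval 56321 bases away. Its difference was −1.55 ± 0.17 (adjusted p = 0.000414, limma). The carboxylesterases Ces1d (−1.17 ± 0.28) and Ces3a (−0.66 ± 0.17) and the phospholipid transfer protein Pltp (−0.69 ± 0.15) lost the call in several single-library omissions, and without Cpt2 KO replicate 2 only 1 gene of the list remained called.

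Amino acid breakdown and the urea cycle had 8 of 46 measured genes higher and 3 lower, with a median of 0.08. Got1, the cytosolic aspartate aminotransferase, had folds at its start (chr19:43520423-43527423) of 13.4 and 20.2 (WT), 23.7 and 12.2 (Cpt2 KO), 31.2 and 35.5 (Ppara KO) and 36.1 and 32.6 (DKO). All Ppara-null livers were above all Ppara-intact livers, by 0.98 ± 0.18 (adjusted p = 0.00568, limma). Agxt2, a mitochondrial aminotransferase for glyoxylate and dimethylarginines, rose from 18.9 and 18.2 for WT and 21.9 and 22.6 for Cpt2 KO to 30.5 and 28.1 for Ppara KO and 33.1 and 42.2 for DKO livers (chr15:10357144-10360487). Its difference was 0.67 ± 0.13 (adjusted p = 0.00784), and 3 of its 4 tested intervals were higher. Sds, the serine dehydratase that makes pyruvate, showed 0.80 ± 0.17, and its call was lost without Cpt2 KO replicate 2, Ppara KO replicate 2 or DKO replicate 1. Prodh2, hydroxyproline dehydrogenase, was the largest change of the list and fell: folds at its start (chr7:30492843-30495611) were 29.3 and 28.7 for WT, 21.5 and 18.3 for Cpt2 KO, 10.7 and 17.1 for Ppara KO and 9.75 and 9.81 for DKO livers, a difference of −1.09 ± 0.16 (adjusted p = 0.00206), which was not called in the fit of 2 group means. The count of higher genes fell to 2 without Cpt2 KO replicate 2.

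Xenobiotic and steroid P450s with their nuclear receptors had 6 of 23 genes higher and 1 lower, with a median of 0.07, and 5 of 24 male-biased liver genes were higher and 0 lower, with a median of 0.10. Over any assigned interval, however, 5 male-biased genes had a higher and 3 a lower one. Cyp7b1, an oxysterol 7-alpha-hydroxylase that is higher in males, stands in both lists. Its strongest interval, 216401 bases from the gene (chr3:18459152-18461430), had folds of 9.67 and 8.47 (WT), 26.0 and 15.4 (Cpt2 KO), 24.9 and 26.7 (Ppara KO) and 36.3 and 34.4 (DKO). The difference was 1.14 ± 0.17 (adjusted p = 0.00183, limma), with no overlap after centring, though a Cpt2 KO liver had a raw fold of 26.0. C6, a complement component, rose at its start (chr15:4727109-4729947) from 7.83 and 6.85 for WT and 8.87 and 7.65 for Cpt2 KO to 15.3 and 14.4 for Ppara KO and 15.4 and 13.2 for DKO livers. That was 0.87 ± 0.18 (adjusted p = 0.0132), a call lost without Cpt2 KO replicate 2, Ppara KO replicate 1 or DKO replicate 1. Cyp3a25, a steroid and drug hydroxylase, and Cyp17a1, a steroid 17-alpha-hydroxylase, showed 0.79 ± 0.18 and 0.63 ± 0.15; Cyp2j5, an epoxygenase, was the lower member at −0.79 ± 0.19. All 3 lost the call when any of several livers was left out. The counts were 1 of 23 P450 genes higher without Cpt2 KO replicate 2, Ppara KO replicate 2 or DKO replicate 2, and 1 of 24 male-biased genes without Cpt2 KO replicate 2 or Ppara KO replicate 1. Of 16 female-biased genes 1 was lower (Acot4) and 1 higher (Cyp17a1).

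Calls at regulators of the liver went in both directions. Ppargc1a, the coactivator of fasting metabolism, was higher at its strongest interval, 165768 bases from the gene (chr5:51285610-51291353), with folds of 10.3 and 9.39 for WT, 19.6 and 11.9 for Cpt2 KO, 18.4 and 21.1 for Ppara KO and 27.9 and 34.5 for DKO livers. Its difference was 0.98 ± 0.16 (adjusted p = 0.00402, limma), and the groups did not overlap after centring. At the strongest interval of each of 30 hepatocyte transcription factors and coactivators, Ppargc1a was higher, while Cebpa (−0.66 ± 0.13), Onecut2 (−0.62 ± 0.14) and Zhx2 (−0.66 ± 0.17) were lower; over any assigned interval, 7 of these genes had a higher and 7 a lower one. Cebpa, a leucine zipper factor of hepatocytes, had 33.8 and 41.5 (WT), 25.3 and 28.5 (Cpt2 KO), 17.6 and 25.5 (Ppara KO) and 17.4 and 22.4 (DKO), and the groups overlapped. None of these 3 falls was called without Cpt2 KO replicate 2. Called or not, 24 of the 30 genes had a difference below 0. Their median was −0.19, against −0.05 for all measured genes. Of 18 clock genes 3 were lower, among them Hlf (−0.80 ± 0.20) and Clock (−0.64 ± 0.16), and 1 was higher: Nfil3, a repressor that opposes Hlf (0.86 ± 0.22). Adjusted p-values of Hlf, Clock and Nfil3 ran from 0.0271 to 0.0298, their groups overlapped, and 0 lower clock genes were called when DKO replicate 2, Ppara KO replicate 1 or WT replicate 2 was left out. The call at Nfil3 was lost on leaving out either Ppara KO liver, either DKO liver or the first Cpt2 KO liver. Gluconeogenesis and fasting signals had 3 of 28 higher: Ppargc1a, the tyrosine aminotransferase Tat and the insulin-like growth factor-binding protein Igfbp1. The list's 1 lower gene was Txnip (−0.57 ± 0.15), a regulator of glucose uptake. Only Ppargc1a was called in every single-library omission. Counting only intervals whose middle lies within 1000 bases of the gene, 0 of 24 genes were higher and 1 lower.

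**Figure D4:**
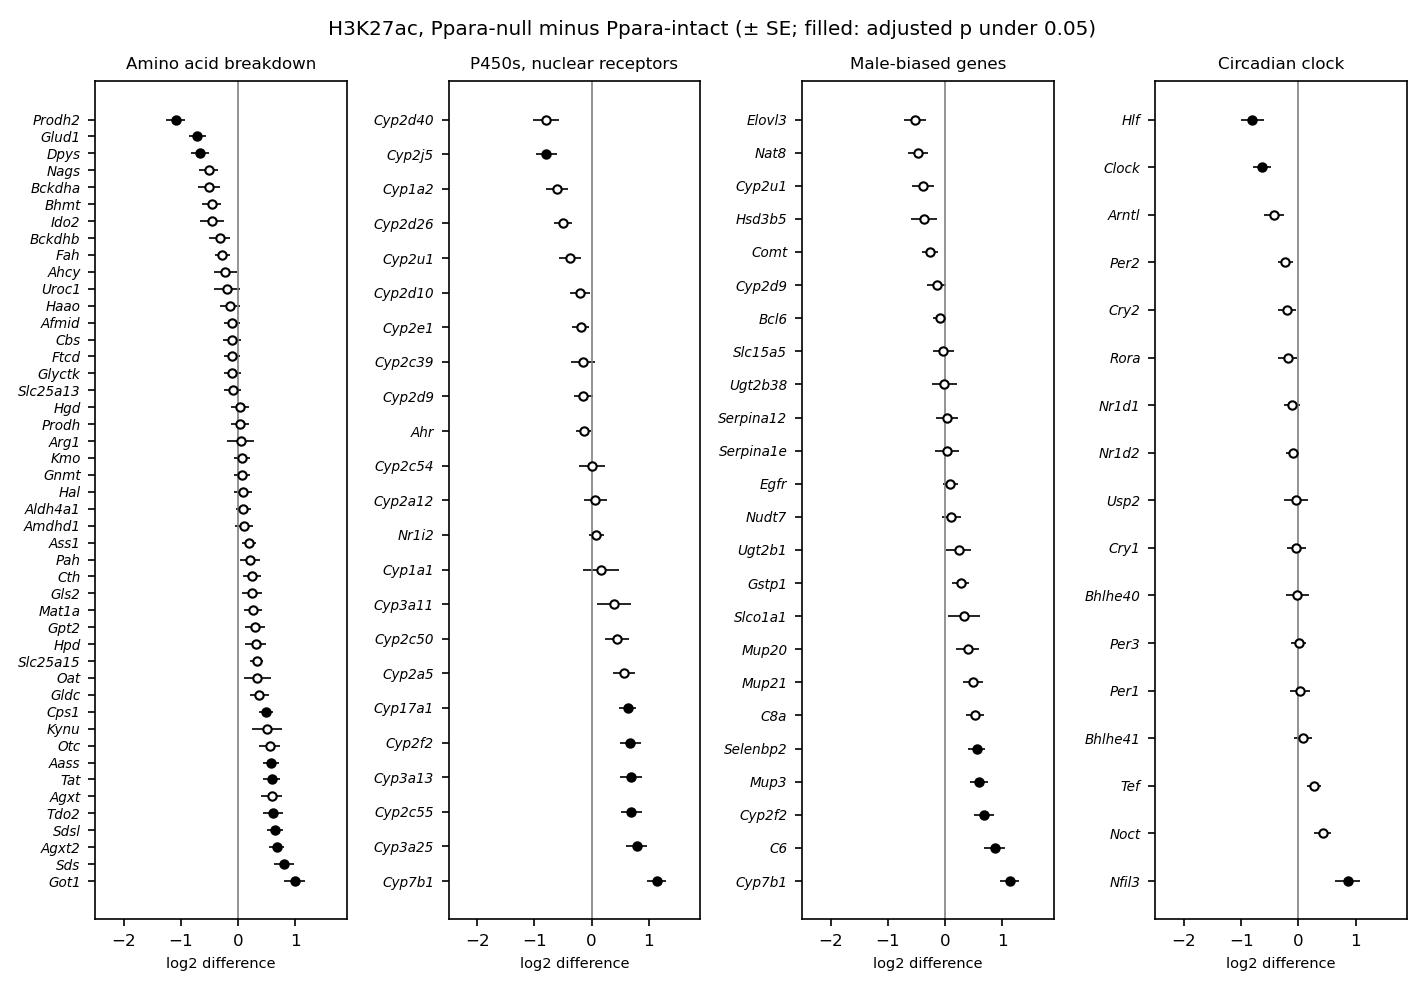
Log2 difference in H3K27ac, Ppara-null minus Ppara-intact (± SE), at the strongest interval of the measured genes of 4 lists: amino acid breakdown, P450s with nuclear receptors, male-biased genes and the circadian clock; filled points passed an adjusted p of 0.05. Filled points reach from Prodh2 (−1.09) to Got1 (0.98) among amino acid genes and up to Cyp7b1 (1.14) among P450s, while most open points lie near 0.

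Adhesion and matrix genes had 4 of 27 higher and 0 lower: Spon1 (2.19 ± 0.19), Cdh1 (0.94 ± 0.19), the laminin chain Lamc1 (0.92 ± 0.21) and the collagen Col15a1 (0.60 ± 0.16). Spon1 and Cdh1 were known from the largest changes. Cdh1, the epithelial cadherin, was higher in 3 of 4 tested intervals. The calls of Lamc1 and Col15a1 were lost without Cpt2 KO replicate 2, and also without Ppara KO replicate 1 or DKO replicate 2. That of Col15a1 was lost on leaving out any other liver too, except WT replicate 2, and in the fit without centring. The glucose list had 2 of 27 higher, Rpia among them, and 1 lower: Slc2a9, a urate and hexose transporter, with folds of 18.7 and 29.8 for WT, 15.1 and 15.3 for Cpt2 KO, 17.6 and 20.4 for Ppara KO and 3.18 and 4.72 for DKO livers (−1.18 ± 0.18, adjusted p = 0.00214). Its Ppara KO folds lay within those of the Ppara-intact livers, and its DKO folds far below. The conjugation list had 2 of 32 higher and 1 lower, the sulfotransferase Sult2a8, which fell from 23.8 to 37.3 in Ppara-intact to 11 to 19.6 in Ppara-null livers (−1.05 ± 0.15, adjusted p = 0.00165, limma).

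The remaining lists are given by their counts at the strongest intervals. Nfe2l2 and antioxidant targets had 3 of 25 lower (Cbr1, Sod1 and Hmox1, −0.70 to −0.62) and 0 higher, acute phase and complement genes 3 of 43 higher and 2 lower, coagulation genes 1 of 29 higher (F12, 0.73 ± 0.15) and 2 lower, and cholesterol genes 2 of 23 higher and 1 lower. Bile acid genes had 1 of 22 higher, which is Cyp7b1, growth and cell cycle genes 1 of 27 higher, and the respiratory chain 1 of 40 lower: Ndufb3, a complex I subunit, at an interval 19343 bases away (−0.63 ± 0.12). Ketone body genes (0 of 11) and the integrated stress response (0 of 17) had no call at their strongest intervals. Of 15 hepatocyte markers 2 were higher (Tat and Cps1) and 1 lower (Serpina1a), and their median was 0.22. Calls in the antioxidant, acute phase, coagulation and cholesterol lists had adjusted p-values from 0.012 to 0.0498, and all but F12 lost the call when more than 1 of the single livers was left out.

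The difference without Ppara was also taken within each Cpt2 state, which are 2 comparisons that share no library. Ppara KO against WT gave 656 lower (3.59%) and 517 higher intervals (2.83%), and DKO against Cpt2 KO 300 lower (1.64%) and 109 higher (0.596%). Of the 758 lower intervals of the main comparison, 97.5% had the same sign in both, as had 97.9% of the 584 higher ones and 55.3% of all 18281; the former were chosen on the mean of both, which favours like signs. Medians of the lower intervals were −0.84 in Cpt2-intact and −0.81 in Cpt2-null livers, those of the higher ones 0.93 and 0.67. The difference was larger without Cpt2 for 11 of the 12 genes named on the lower side and for 4 of the 12 on the higher side, against 48.9% of all lower, 34.2% of all higher and 39.5% of all tested intervals. Lipg showed −0.67 and −2.42 in Cpt2-intact and Cpt2-null livers, Slc2a9 −0.31 and −2.04, and Aass, a lysine-degrading enzyme, −0.25 and 1.39. A test of the difference between both states passed in 1 of 18281 intervals (0.00547%), that of Rpia, ribose-5-phosphate isomerase of the pentose phosphate pathway, 21721 bases away (chr6:70812513-70815280). Folds there were 3.78 and 4.63 in WT and 22.8 and 25.1 in Ppara KO, but 27 and 24.9 in Cpt2 KO and 35.2 and 35.4 in DKO. Ppara-null livers were higher by 2.53 with Cpt2 and by 0.37 without it, an interaction of −2.16 (adjusted p = 0.0421, limma). At an unadjusted p under 0.05 the interaction passed in 2771 intervals (15.2%), and without centring in 8 after adjustment. With a library left out, 7 intervals passed without WT replicate 1, 1 without Ppara KO replicate 1 and 0 without each of the others.

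H3K4me1, which marks enhancers whether active or not, was measured in the same 8 livers by the numbers in the peak names. The H3K4me1 libraries were uneven, with 61189 to 72151 peaks that covered 38.8 to 53.5 Mb, against 42 to 47.8 Mb for H3K27ac. How far this bears on the H3K4me1 calls was not tested. Over the 17094 H3K27ac intervals with an H3K4me1 peak in all 8 libraries, 0 (0%) passed the limma test of the Ppara difference, while 2372 (13.9%) had an unadjusted p under 0.05. Of 506 lower H3K27ac intervals with an H3K4me1 value, 388 (76.7%) had lower H3K4me1, and of 408 higher ones, 373 (91.4%) had higher H3K4me1, against 46.7% lower and 53.3% higher over 9576 shared intervals. The median H3K4me1 difference was −0.23 in the former and 0.38 in the latter, against 0.03 over all. Across the 9576 intervals, which come from the same livers, Pearson's r between the differences of both marks was 0.446. At the 12 genes named each way by size, H3K4me1 was lower in 10 of 11 with a value and higher in 7 of 7. The largest of these were Smim4 (−0.92), Cyp4a10 (−0.81), Cyp4a32 (−0.80) and Itpr1 (0.69). The mark followed less evenly at the lower genes of lists with at least 4 such values. It was lower in 6 of 8 peroxisomal and 3 of 4 omega hydroxylation genes. The counts were 2 of 4 for mitochondrial oxidation, 2 of 4 for uptake and 1 of 4 for apolipoprotein and VLDL genes. Without Cpt2 KO replicate 1, 615 intervals passed for H3K4me1.

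**Figure D5:**
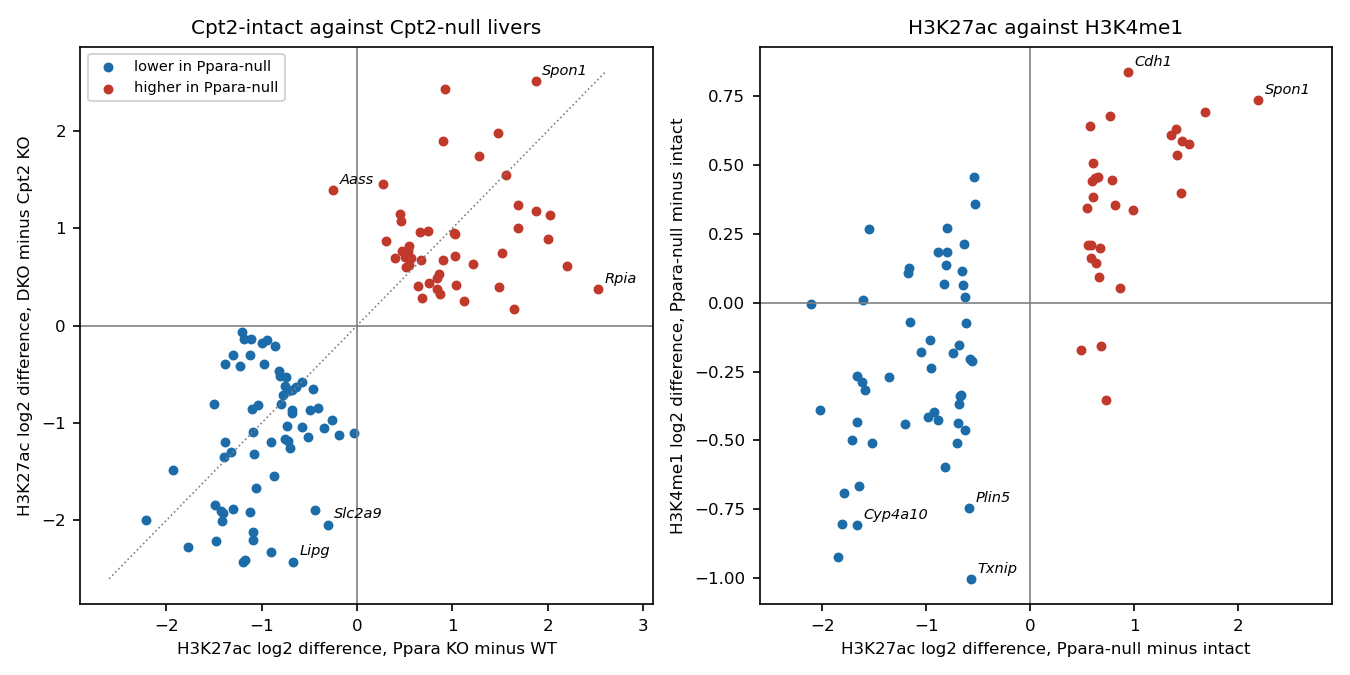
Left, H3K27ac log2 difference of Ppara KO minus WT (x) and of DKO minus Cpt2 KO (y) at the called intervals of named and listed genes, 65 lower and 46 higher; the dotted line marks equal differences. Right, H3K27ac (x) and H3K4me1 (y) log2 differences, Ppara-null minus Ppara-intact, at those with an H3K4me1 value; blue points were lower and red points higher in H3K27ac, and on the right panel 36 of 51 blue points lie below 0 and 27 of 30 red points above it.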

How the data were processed

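H3K27ac ChIP-seq of 8 fasted mouse livers was used, with H3K4me1 of the same livers as a second mark. Reads were aligned to mm10 with BWA and peaks were called per sample with MACS2 2.1.0, per the submitters' processing notes. The deposited narrowPeak files give for each peak a fold ratio over input and a −log10 q-value, both from the authors' peak caller; how reads that match several places were handled, and read depth, are not given in the sources used here. Peak names of Ppara KO replicate 2 carry another build word than the other files.

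Peaks of the H3K27ac libraries were merged into 65776 consensus intervals. The value of an interval in a library is the highest fold of its peaks, in log2, minus the library's median over the 18281 intervals called in all 8. The test used limma (version 3.58.1, under R 4.3.3), as a fit of the 4 genotype means with an intensity trend in eBayes and Benjamini-Hochberg adjustment over all intervals at 0.05; values after ± are its moderated standard errors unless marked SD. An interval was assigned to the nearest of 21887 protein-coding gene bodies of RefSeq, which hold no exon or intron annotation here. Named genes are the 12 called genes with the largest difference each way after the first 3 intervals, and up to 4 per list by adjusted p; further list genes were named after their values were seen. Members and lists were chosen with earlier results of these data known. The test was checked on simulated data. A few genes counted in the totals are not reported here by name, in text or figures.

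Alternatives were no centring, quantile normalization, the smallest peak width as a covariate, a replicate block, peaks with −log10 q of at least 10, an overlap of 50%, intervals with at least 3 libraries per Ppara state, a weighted mean fold, 2 group means, no trend, and each of 8 libraries left out. A 25000-base window, the split by start and the looser repeat were added after seeing the data.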

Additional observations from a re-analysis of the deposited data

Results flagged for a closer look

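Of 290 groups of 4 livers examined, 11 held a liver set apart by Dixon's test. The gap to the nearest of the others, divided by the range of the 4, was above the critical value on centred log2 folds. Chance flags about 1 in 20 groups of like livers, but each group here held 2 genotypes, so this is only a guide. Folds are given here before centring. Among Ppara-null livers, those set apart were DKO replicate 2 at Acaa1b with a fold of 6.17 and Ppara KO replicate 2 at Smim4 with 4.48. DKO replicate 1 was set apart at Spon1 with 17.6, at Cyp7b1 with 36.3 and at the Cpt2 start with 9.33. Ppara KO replicate 1 was set apart at an interval 60834 bases from Ppara, with 35.8. Among Ppara-intact livers, WT replicate 2 stood out at Btaf1 with 30.6 and at Acads with 30.7. WT replicate 1 stood out at Lamc1 with 5.22, and Cpt2 KO replicate 1 at Cyp2d9 with 29.0 and at Inava with 9.04.

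A test of whether the Ppara difference varied with Cpt2 state passed at Rpia. The interaction there on the log2 scale, Cpt2-null minus Cpt2-intact, was −2.16. It was not called with the replicate block, the smallest peak width as a covariate or a −log10 q of at least 10.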

How the results depend on the processing

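Median differences over all intervals stayed between −0.03 and 0.02 in log2 under every setting. Lower and higher intervals numbered 425 and 288 with the smallest peak width as a covariate, and 144 and 94 with 2 group means, which place the Cpt2 difference in the error. With a library left out they ran from 276 to 831 and from 193 to 697. Over gene starts, lower calls numbered 149 without centring, 131 with the width covariate, 37 with 2 group means and 75 to 388 with a library left out; higher calls numbered 82 after quantile normalization, 19, 3 and 14 to 65, and 34 without trend. Away from starts, lower calls numbered 294, 107 and 201 to 443, and higher calls 269, 91 and 177 to 632. The interaction was called in 8 intervals without centring, 2 with the weighted mean, 0 with the width covariate or with −log10 q of at least 10, and 0 to 7 with a library left out. H3K4me1 calls numbered 19 without centring, 16 with that q and 0 to 615 with a library left out. For most of these the cause was not tested. Of 118 called single intervals followed, 0 changed direction, 58 lost the call with some library left out, 70 under some other setting, and 48 kept it throughout. How far read depth limits these folds is unknown, since the files do not give it.

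Replicate numbers did not pair the H3K27ac livers: correlations of same-numbered deviations ran from −0.0649 to 0.172. For H3K4me1 they ran from −0.493, between Cpt2 KO and Ppara KO, to 0.108. With the replicate block, 848 intervals were lower, 642 higher and 0 showed the interaction, and 1 single interval lost its call.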

Other observations

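Intervals called in all livers of one Ppara state and in none of the other have no value in the test, and are described here by their folds, without a test. Of these, 477 were called in Ppara-intact livers alone and lie nearest to 403 genes, and 416 in Ppara-null livers alone, nearest to 351 genes, of 21887 protein-coding genes in all. Of 817 listed genes 620 had a tested interval, but of all 21887 genes only 9358. The list counts and the totals are thus not like for like. Peroxisomal oxidation had 8 of 29 genes with an interval of the first kind, in Ppara-intact livers alone, and 0 of the second. Thioesterases and vanins had 5 of 19 and 0. Vnn1, a pantetheinase, had such an interval 9541 bases from the gene with folds of 14.4 and 12.3 in WT and 34.0 and 30.5 in Cpt2 KO. Hadhb, a subunit of the mitochondrial trifunctional protein, had 3 of them; the one at chr5:30163981-30167655 had 10.0 and 12 in WT and 20.1 and 23.2 in Cpt2 KO. Of 12 ketone body genes, 3 had an interval in Ppara-intact livers alone and 1 in Ppara-null livers alone, the monocarboxylate transporter Slc16a7, with folds of 8.03 and 10.3 (Ppara KO) and 7.25 and 13.4 (DKO). Among the former Fgf21, a fasting hormone of the liver, had 15.0 and 18.4 in WT and 22.0 and 21.6 in Cpt2 KO, inside the gene (chr7:45613190-45616441). The transcription factor Cebpb had 18.8 to 22.0, at an interval 31856 bases away.

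In the opposite set, Nfil3 had 2 intervals called in Ppara-null livers alone, and the one 11479 bases from the gene had folds of 11.3 and 14.7 (Ppara KO) and 20.2 and 19.8 (DKO). Agxt2 had 13.1 and 14.2 (Ppara KO) and 11 and 18.2 (DKO) inside the gene, and Ppargc1a, 7653 bases away, 7.36 and 10.0 (Ppara KO) and 8.0 and 7.65 (DKO). Of 37 P450 and nuclear receptor genes, 3 had such an interval and 0 one of the first kind.

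Of the 9358 genes with a tested interval, 678 had any lower and 490 any higher one. Among these, 65 genes had 2 or more lower and 75 had 2 or more higher intervals, and 31 genes had both a lower and a higher one. Genes with more tested intervals can reach 2 calls more readily, for which these counts are not adjusted. Fto, an RNA demethylase, had 4 higher intervals of 6 tested (0.65 to 1.15 in log2), the Golgi mannosidase Man2a1 4 of 13 and the casein kinase Csnk1g3 4 of 7. Rtf2, a replication termination factor, was lower in all 3 of its tested intervals, by −1.21 to −0.65. These genes were singled out after their values were seen.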
